A study of Mus musculus with 9 samples.

Results

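The genes of the cytosolic ribosomal proteins were examined in the mouse hippocampus. They were chosen as the protein-coding genes whose symbol is Rps or Rpl with a number, Rplp0 to Rplp2, or Rpsa, and 83 of the 54532 genes in the later table met this rule. Of these, 31 encode proteins of the small subunit, 43 of the large subunit and 3 of the P stalk, and 6 are paralogues of another member (Rpl3l, Rpl7l1, Rpl10l, Rpl22l1, Rpl39l and Rps27l). The rule reads symbols and not measured values. It leaves out genes such as Fau, Rack1 and Rpl36al, which encode or resemble ribosomal proteins under other names.

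Ribosomal RNA-depleted total RNA of the hippocampus was sequenced in 9 samples, 3 in each of 3 groups, from C57BL/6 mice labelled male and bought at 6 to 8 weeks of age. Con mice were fed the standard diet. HMD mice were kept on a high-methionine diet for 8 weeks, which raises homocysteine. Bet+HMD mice had that diet for 8 weeks and then received betaine, which donates a methyl group to homocysteine, at 2.5% (w/v) in the drinking water for 2 weeks. None of the labels names a transgene or a deleted gene. The strain entries of the Bet+HMD mice read C57BL/6, C57BL/7 and C57BL/8, while the growth protocol gives C57BL/6 for all, and the study's methods describe female mice and no betaine group. Xist, which is made from the inactive X chromosome of females, was at most 0.0449 FPKM in any library. Genes of the Y chromosome were read in all 9 libraries. Ddx3y had 12.7 to 21.2 FPKM, Eif2s3y 5.53 to 17.5, Uty 1.76 to 3.04 and Kdm5d 1.12 to 2.94. The labels do not say whether the high-methionine diet went on while betaine was given, and the Bet+HMD mice may also have been older at sampling. They were added in the later table and no other group came with them, so betaine, age and whatever else came with the later addition cannot be told apart in any comparison with Bet+HMD.

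Each ribosome is built from ribosomal RNA and the ribosomal proteins, most of them in a single copy. The small subunit reads the messenger RNA, the large subunit joins the amino acids, and the P stalk recruits the factors that drive elongation. The messenger RNAs of these proteins are short and abundant and usually begin with a run of pyrimidines, the 5′ terminal oligopyrimidine tract, through which the mTOR pathway adjusts their translation. Their many processed pseudogenes are copies of the messenger RNA inserted elsewhere in the genome, and reads can match parent and copy alike.

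Levels are FPKM, fragments scaled to gene length in kilobases and to the size of the library, in the later table. The library size behind these values was not the number of assigned reads. It was 0.989, 0.953 and 1.026 times that number in Con and 0.993, 0.956 and 1.005 times in HMD. In Bet+HMD it was 1.046, 1.049 and 1.042 times. The part of these factors in the differences between groups was not tested. Between 16031464 and 18291952 reads per library were assigned to genes, and between 76891 and 244390 of them to the ribosomal protein genes. Their share of assigned reads was 1.06, 0.9695 and 1.47% in the 3 Con libraries, 1.04, 0.929 and 1.13% in HMD and 0.541, 0.534 and 0.4604% in Bet+HMD. Every Bet+HMD library lay below every other library, and Con replicate 3 stood above all others. The group means were 1.17% ± 0.264, 1.03% ± 0.101 and 0.512% ± 0.0446 (mean ± SD, n = 3). Without the 59 members that have a named pseudogene copy, the means were 0.313% ± 0.0867, 0.271% ± 0.02904 and 0.134% ± 0.0103, in the same order. In bulk tissue, fewer cells of a type and less RNA per cell cannot be told apart.

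The 3 Bet+HMD libraries were more alike than the libraries of the other groups. For the reads of any 2 of them over genes, chi-square divided by its degrees of freedom was 3.10 to 4.47, against 24.9 to 46.4 in Con and 12.8 to 24.3 in HMD. A value near 1 would be sampling noise alone, so no library was a second copy of another. The median SD of log2(FPKM + 1) over 13464 genes was 0.18 in Con, 0.15 in HMD and 0.08 in Bet+HMD, and over the 78 ribosomal protein genes tested below it was 0.31, 0.16 and 0.15. The labels do not say that the samples of a group came from separate mice, and p-values measure only the spread between these samples, which may be technical. Each comparison with Bet+HMD is therefore also given with its 3 libraries averaged to 1 sample, a choice made after seeing the data, in which that lone sample is assumed to vary like the libraries of the other group.

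A mean of at least 1 FPKM over the samples compared was reached by 78 members in each comparison, and these were tested. The 5 that did not reach it were Rpl3l, Rpl10l, Rpl24, Rpl39l and Rps10. Rpl10l, a testis-type paralogue, was listed at 0 in all 9 libraries. Rpl39l had at most 0.223 FPKM and Rpl3l, a paralogue of striated muscle, at most 0.4195. Rpl24 and Rps10 encode standard ribosomal proteins, and their highest values were 1.27 and 0.936 FPKM. In the reference annotation 80.1% of the 100-base stretches of the Rpl24 transcript, and 61.8% of those of Rps10, also occur in transcripts of other genes. Exons of other genes on the same strand also cover 47.0% of the exon bases of Rpl24 and 20.6% of those of Rps10. Their low values are therefore uncertain as levels of expression.

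**Figure D1:**
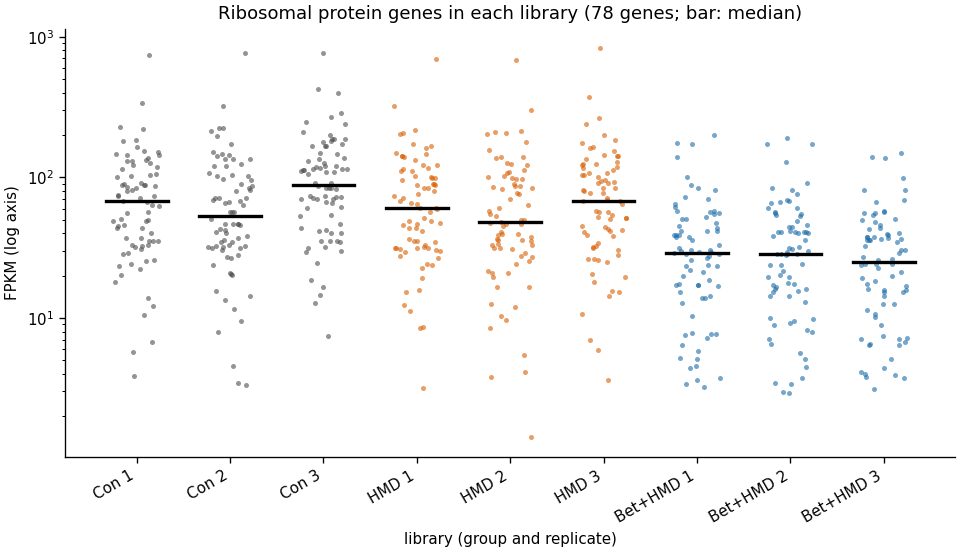
Level of the 78 tested ribosomal protein genes in each library. The vertical axis is FPKM on a log scale, each point is 1 gene, and the bar is the median of the library. The medians were 67.3, 53.3 and 88.5 FPKM in Con, 60.7, 47.8 and 68.2 in HMD and 29.0, 28.5 and 25.1 in Bet+HMD.

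The high-methionine diet was compared with the standard diet first. No ribosomal protein gene passed the threshold in HMD against Con. In limma over 13004 genes 0 members had an adjusted p under 0.05, against 0% of all genes tested, and limma voom on the recovered reads also called 0. The smallest adjusted p of a member was 0.979. At an unadjusted p under 0.05 there was 1 member with a lower level, against 2.2% of all genes, and 0 with a higher level, against 2.32%. Of the 78, 68 had a lower and 10 a higher mean on the log2 scale, with a median log2 fold change of -0.14 beside -0.008 for all genes tested. Groups did not overlap, with HMD lower, for 3 members, against 4.9% of all genes.

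That lean toward lower values moved with 1 library. Con replicate 3 held the highest of the 9 values for 64 of the 78 members, and without it the median log2 fold change was -0.0053. The extreme was Rps28, a small subunit protein, at 20.3, 7.97 and 54.4 FPKM in Con, 12.5, 5.48 and 17.96 in HMD and 4.56, 3.48 and 5.10 in Bet+HMD. The Con and HMD libraries overlapped for Rps28, and the largest Con value was in replicate 3. Rpl7a, of the large subunit, had 6.799, 4.54 and 40.3 FPKM in Con and 22.5, 3.81 and 6.98 in HMD. Rps28 and Rpl7a were picked here after their values had been seen.

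In place of called genes, those of lowest p on either side are described. Rps13, of the small subunit (ENSMUSG00000090862, chromosome 7, 116331505 to 116334195, - strand), had 32.8, 31.7 and 35.2 FPKM in Con and 27.7, 27.1 and 25.9 in HMD. All HMD libraries lay below all Con libraries, with a log2 fold change of -0.29 (SE 0.101, limma adjusted p = 0.979). Rps2, which lines the entry of the messenger RNA channel, had 130.4, 134 and 186 FPKM in Con and 117, 125 and 117 in HMD, without overlap, and a log2 fold change of -0.31 (SE 0.156, limma adjusted p = 0.979). Rpl13a, of the large subunit, had only 3.84, 3.33 and 7.41 FPKM in Con and 3.19, 1.42 and 3.61 in HMD, and these values overlapped. In the other direction Rpl17, Rps27 and Rps12 had log2 fold changes of 0.26, 0.10 and 0.052, each with overlapping groups and a limma adjusted p of at least 0.979.

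Betaine-treated mice were compared with HMD mice to ask what differs when betaine follows the diet. Most ribosomal protein genes were lower in Bet+HMD, and none was called higher. Of the 78 tested, 62 fell at an adjusted p under 0.05, against 25.5% of the 13672 genes tested, and 0 rose, against 22.8%. By at least 1 on the log2 scale 42 fell, against 2.79% of all genes. Groups did not overlap, with Bet+HMD lower, for 63 members, against 31.8% of all genes. The median log2 fold change was -1.07, beside -0.025 for all genes. When FPKM was rescaled to TPM the median of all genes moved to 0.16, the calls over all genes went from 3489 lower and 3118 higher to 1974 lower and 4496 higher, and 57 members fell. In voom the calls over all genes were 2865 lower and 3933 higher, and 61 members fell.

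With the 3 Bet+HMD libraries averaged to 1 sample, 40 of the 78 members fell and 0 rose, against 3.05% of all genes lower and 4.35% higher. Of the members described below as having fallen, Rpl4, Rpsa, Rpl22l1, Rpl7l1, Rpl31 and Rpl32 were not called in that fit, with limma adjusted p-values of 0.115, 0.067, 0.0575, 0.243, 0.229 and 0.137, and the others named kept their call.

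The size of the fall ran from -4.30 to -0.32 among the members that passed. In the small subunit 26 of 30 tested members fell, with a median of -1.31. In the large subunit 30 of 42 fell, with a median of -0.84. All 3 P stalk genes fell, and so did the 3 paralogues that were tested. Between Con and HMD the order of the members' levels was nearly the same (Spearman's rho of the group means 0.98 over 78 members), and between HMD and Bet+HMD it was 0.79. Members of a library share its depth and RNA, so these values are descriptions and carry no p.

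**Figure D2:**
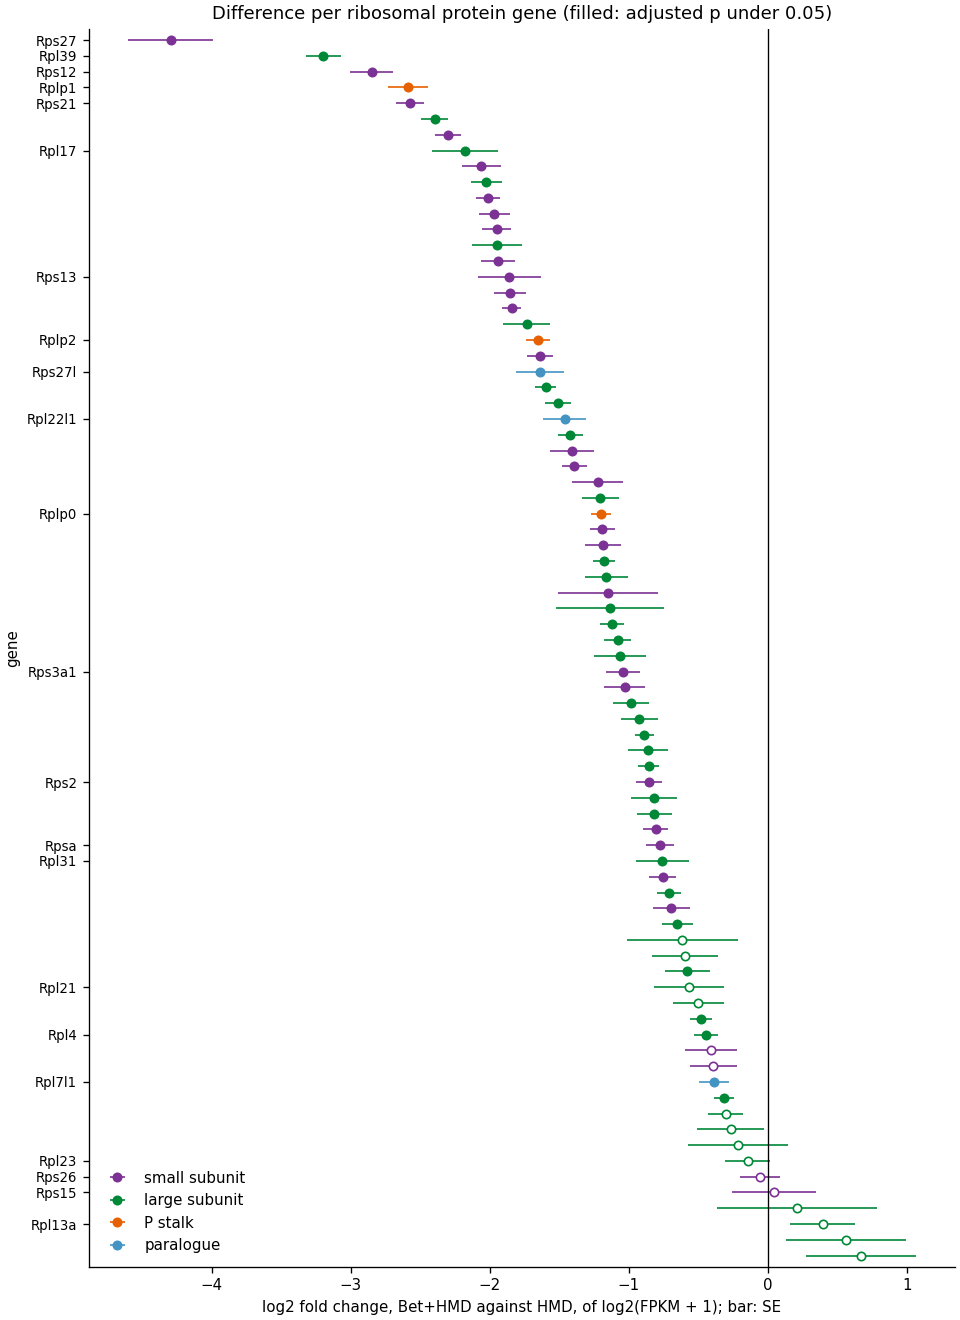
Log2 fold change of each tested ribosomal protein gene in Bet+HMD against HMD, on the log2(FPKM + 1) scale, ordered from the largest fall to the largest positive value. Points are 78 genes coloured by role, bars are the SE of limma, and filled points passed an adjusted p of 0.05. Symbols on the vertical axis mark the members named by rule. The 62 filled points all lie below 0.

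The 5 largest falls included 3 small subunit genes, 1 large subunit gene and 1 P stalk gene. Rps27, of the small subunit (ENSMUSG00000090733, chromosome 3, 90212522 to 90213651, - strand), had 106, 147 and 91.5 FPKM in Con, 121, 140.5 and 104 in HMD and 3.75, 9.54 and 3.80 in Bet+HMD. Its Bet+HMD libraries lay far below the other 6, and the fold change was, on the log2 scale, -4.30 (SE 0.303, limma adjusted p = 9.54e-05). Rps27 has a copy with the same coding sequence, described further on, and its size is uncertain.

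Rpl39, a very small protein of the large subunit's exit tunnel (ENSMUSG00000079641, chromosome X, 37082520 to 37085402, - strand), had 68.2, 97.1 and 67.1 FPKM in Con, 89.7, 86.9 and 67.8 in HMD and 7.83, 8.87 and 7.17 in Bet+HMD. The groups did not overlap, and only 1.75% of the 100-base stretches of its transcript occur in another gene. Rpl39 had a log2 fold change of -3.20 (SE 0.125, limma adjusted p = 1.57e-05). Rps12, of the small subunit (ENSMUSG00000061983, chromosome 10, 23785183 to 23787275, - strand), had 35.5, 33.2 and 34.8 FPKM in Con, 36.2, 33.03 and 38.3 in HMD and 5.14, 2.98 and 4.42 in Bet+HMD, with a log2 fold change of -2.85 (SE 0.157, limma adjusted p = 4.25e-05). It has 23 named pseudogene copies.

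Rps21, of the small subunit (ENSMUSG00000039001, chromosome 2, 180257377 to 180258445, + strand), had 179.9, 212 and 247 FPKM in Con, 207, 211 and 175 in HMD and 30.6, 35.7 and 30.6 in Bet+HMD. No 100-base stretch of its transcript occurs in another gene, it has no named pseudogene, and its exons overlap no other gene. Its fold change was, on the log2 scale, -2.57 (SE 0.101, limma adjusted p = 1.57e-05), so a fall of this size was also measured where no shared sequence or overlap was annotated.

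The P stalk genes differed in how far they fell. Rplp1 (ENSMUSG00000007892, chromosome 9, 61913284 to 61914542, - strand), an acidic stalk protein, had the highest level of all members, with 742, 769 and 765 FPKM in Con, 698, 688 and 825 in HMD and 140.4, 129 and 98.5 in Bet+HMD. All Bet+HMD values lay below the lowest value of the other groups, and the fold change was, on the log2 scale, -2.59 (SE 0.143, limma adjusted p = 4.25e-05). Rplp2, its partner in the stalk (ENSMUSG00000025508, chromosome 7, 141447370 to 141451585, + strand), had 25.9, 32.7 and 43.6 FPKM in Con, 31.4, 35.8 and 31.2 in HMD and 10.3, 10.04 and 8.899 in Bet+HMD and a log2 fold change of -1.65 (SE 0.0877, limma adjusted p = 3.84e-05). Rplp0, the base to which both bind (ENSMUSG00000067274, chromosome 5, 115559467 to 115563727, + strand), had 123, 125 and 145 FPKM in Con, 123, 127 and 124 in HMD and 55.9, 55.9 and 49.4 in Bet+HMD. Its groups did not overlap between Bet+HMD and HMD, and the fold change was, on the log2 scale, -1.20 (SE 0.0737, limma adjusted p = 5.94e-05).

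Rps3a1 and Rpl4 had the highest mean levels after Rplp1, and they fell less. Rps3a1, of the small subunit (ENSMUSG00000028081, chromosome 3, 86137940 to 86142702, - strand), had 337, 324 and 396 FPKM in Con, 323, 303 and 375 in HMD and 176, 171 and 138 in Bet+HMD, with a log2 fold change of -1.04 (SE 0.122, limma adjusted p = 0.000594). Rpl4, of the large subunit (ENSMUSG00000032399, chromosome 9, 64173375 to 64178666, + strand), had 222, 224 and 268 FPKM in Con, 217, 215 and 239 in HMD and 174, 171 and 148 in Bet+HMD, with a log2 fold change of -0.44 (SE 0.0884, limma adjusted p = 0.00559). Rpsa, a small subunit protein that also serves as a laminin receptor (ENSMUSG00000032518, chromosome 9, 120127689 to 120132369, + strand), had 115, 102 and 120.1 FPKM in Con, 103, 99.1 and 122 in HMD and 64.9, 65.4 and 56.9 in Bet+HMD, with a log2 fold change of -0.78 (SE 0.102, limma adjusted p = 0.00094). In Rps3a1, Rpl4 and Rpsa every Bet+HMD library lay below every HMD library.

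The paralogues that were measured also fell. Rps27l, a relative of Rps27 that is induced by p53 (ENSMUSG00000036781, chromosome 9, 66946086 to 66949516, + strand), had 12.2, 14.2 and 16.7 FPKM in Con, 15.8, 12.5 and 14.3 in HMD and 5.22, 2.91 and 3.73 in Bet+HMD and a log2 fold change of -1.64 (SE 0.172, limma adjusted p = 0.0004). Rpl22l1, a paralogue of Rpl22 (ENSMUSG00000039221, chromosome 3, 28805436 to 28807424, + strand), had 13.8, 11.5 and 18.7 FPKM in Con, 11.1, 9.68 and 15.4 in HMD and 3.65, 3.41 and 3.96 in Bet+HMD and a log2 fold change of -1.46 (SE 0.154, limma adjusted p = 0.000405). Rpl22 itself had 30.8, 35.9 and 46.4 FPKM in Con, 32.998, 31.6 and 32.1 in HMD and 17.4, 17.4 and 16.0 in Bet+HMD, with a log2 fold change of -0.89 (SE 0.0676, limma adjusted p = 0.000121). Rpl7l1, a paralogue of Rpl7 (ENSMUSG00000063888, chromosome 17, 46773907 to 46782672, - strand), had 10.4, 9.59 and 12.8 FPKM in Con, 8.48, 8.55 and 10.7 in HMD and 7.53, 6.54 and 6.38 in Bet+HMD, with a log2 fold change of -0.39 (SE 0.109, limma adjusted p = 0.0225). The fall of Rpl7l1 was among the smallest that passed.

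Some standard members did not pass the test. The 3 with the smallest differences were Rps15, Rps26 and Rpl23. Rps15, a small subunit protein (ENSMUSG00000063457, chromosome 10, 80292453 to 80294114, + strand), had 229, 136 and 426 FPKM in Con, 167, 109.9 and 264 in HMD and 199.9, 192 and 139 in Bet+HMD. Its Bet+HMD values lay inside the range of HMD, and the fold change was, on the log2 scale, 0.045 (SE 0.302, limma adjusted p = 0.918). Rps26, of the small subunit near the messenger RNA exit (ENSMUSG00000025362, chromosome 10, 128624534 to 128626747, - strand), had 70.9, 46.8 and 86.6 FPKM in Con, 56.7, 46.2 and 68.4 in HMD and 58.01, 56.4 and 48.5 in Bet+HMD and a log2 fold change of -0.058 (SE 0.146, limma adjusted p = 0.766). Rpl23, of the large subunit, which also binds Mdm2 (ENSMUSG00000071415, chromosome 11, 97777527 to 97782437, - strand), had 35.2, 28.2 and 84.6 FPKM in Con, 32.1, 24.1 and 39.1 in HMD and 28.5, 29.6 and 26.3 in Bet+HMD and a log2 fold change of -0.14 (SE 0.162, limma adjusted p = 0.493). Without HMD replicate 2, Rpl23 passed the threshold with a log2 fold change of -0.32 (limma adjusted p = 0.037). A p that misses the threshold does not show that these levels were equal.

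A positive log2 fold change was seen for 5 members, none past the threshold, and 4 of these belong to the large subunit. Rpl35 had 35.1, 20.6 and 72.9 FPKM in Con, 29.3, 11.9 and 42.98 in HMD and 39.1, 40.9 and 39.99 in Bet+HMD and a log2 fold change of 0.67 (SE 0.395, limma adjusted p = 0.199). Rpl23a had 79.8, 46.8 and 135 FPKM in Con, 60.7, 21.6 and 77.7 in HMD and 80.9, 75.7 and 55.6 in Bet+HMD and 0.56 (SE 0.431, limma adjusted p = 0.313). In both, the Bet+HMD values lay inside or close to the HMD range, and HMD replicate 2 was low. Without HMD replicate 3, Rpl35 passed the threshold with 1.05 (limma adjusted p = 0.0401). Rpl13a and Rpl7a had log2 fold changes of 0.39 and 0.21. Annotated exons of other genes cover 66.2% of the exon bases of Rpl35, 62.3% of Rpl23a and 35.4% of Rpl13a. Most of this overlap is on the opposite strand for Rpl35 and Rpl23a, and all of it is on the same strand for Rpl13a. Since the sources do not say whether the counting used strand, the values of Rpl35 and Rpl23a are uncertain. The value of Rpl13a is uncertain whether or not strand was used.

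Rps27 shows how reads divide between near-identical genes. Its near-copy Rps27rt (ENSMUSG00000050621, chromosome 9) is annotated as protein-coding, has 1 exon where Rps27 has 4, and differs from it at 0 of the 252 coding bases. Rps27l differs from Rps27 at 60 of 252 coding bases. Coding bases 6 to 35, where Rps27l departs most from Rps27, are printed to show why reads of Rps27 and Rps27rt cannot be separated there while those of Rps27l can (GENCODE M21 on GRCm38, 5′ to 3′, with capitals where a base differs from Rps27). The stretch lies at chr3:90213273-90213610 on the - strand for Rps27, across an intron. For Rps27rt it lies at chr9:114982673-114982702 on the - strand, and for Rps27l at chr9:66946180-66946859 on the + strand, across an intron.
Rps27: tctcgcaaaggatctccttcatccctctcc
Rps27rt: tctcgcaaaggatctccttcatccctctcc
Rps27l: CctGgcTaGAgatctGTtAcaCccTtcCTT

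Rps27rt had 121, 71.9 and 200.2 FPKM in Con, 142, 35.8 and 105 in HMD and 48.02, 28.6 and 37.6 in Bet+HMD. Reads of Rps27 numbered 1997, 2493 and 1632 in Con, 2201, 2245 and 1837 in HMD and 68, 176 and 69 in Bet+HMD, and Rps27rt took between 8.37% and 82.1% of the reads of both. The sum of both was 154, 172 and 175 RPM (reads scaled to the size of the library) in Con, 179, 153 and 149 in HMD and 22.9, 21.7 and 18.8 in Bet+HMD. The SD of the reads, not scaled to the size of the library, was 432 for Rps27 alone and 60.003 for the sum in Con. It was 224 and 377 in HMD and 62.1 and 34.6 in Bet+HMD. In unscaled reads the sum thus varied less in Con and Bet+HMD and more in HMD. The mean of the sum was 7.59-fold lower in Bet+HMD than in HMD. With the reads of Rps27rt added to Rps27, a choice made after seeing the data, Rps27 had a log2 fold change of -2.95 (SE 0.102, limma adjusted p = 1.22e-05). The division of reads between the 2 genes therefore changes the size of the fall and not its direction.

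**Figure D3:**
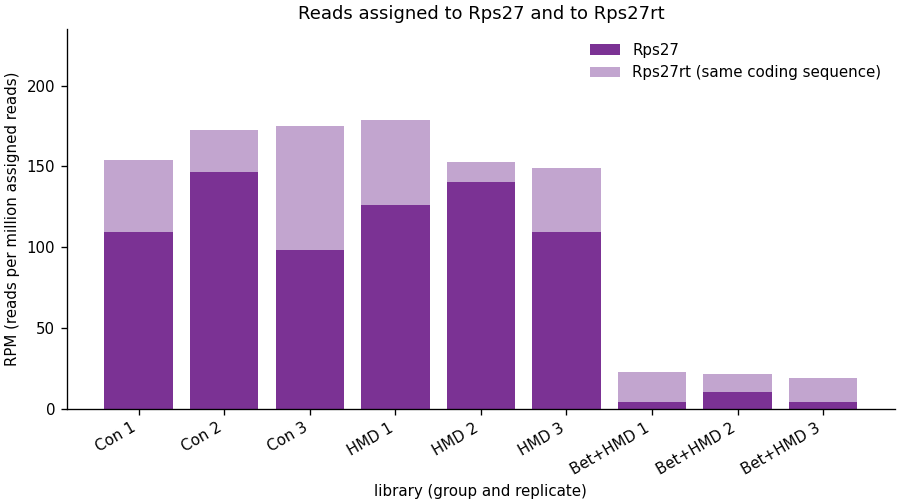
Reads of Rps27 (dark) and of Rps27rt (light) in RPM in each library, stacked. The height is the sum, between 149 and 179 in Con and HMD and between 18.8 and 22.9 in Bet+HMD, while the division between the genes varies from library to library.

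The members were set beside other coding genes of like length. Gene length here is the number of exon bases in the table, and members were 383 to 6270 bases long. Among other protein-coding genes the median log2 fold change in Bet+HMD against HMD was -0.17 below 600 bases (62 genes), -0.35 from 600 to under 1000, -0.34 from 1000 to under 2000 and -0.032 at 2000 or more. The medians of the members in the same classes were -1.95 (3 genes), -1.06 (9), -1.11 (32) and -0.94 (34). The median of the members lay below that of other coding genes in every length class. At 2000 bases or more 29 of 34 members fell (85.3%), and 24.8% of the other coding genes did. With a correction for length fitted to all genes the median of the members was -0.92, and 60 fell. Across members Spearman's rho of the log2 fold change was 0.13 with gene length and 0.32 with the length of the main transcript (n = 78).

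**Figure D4:**
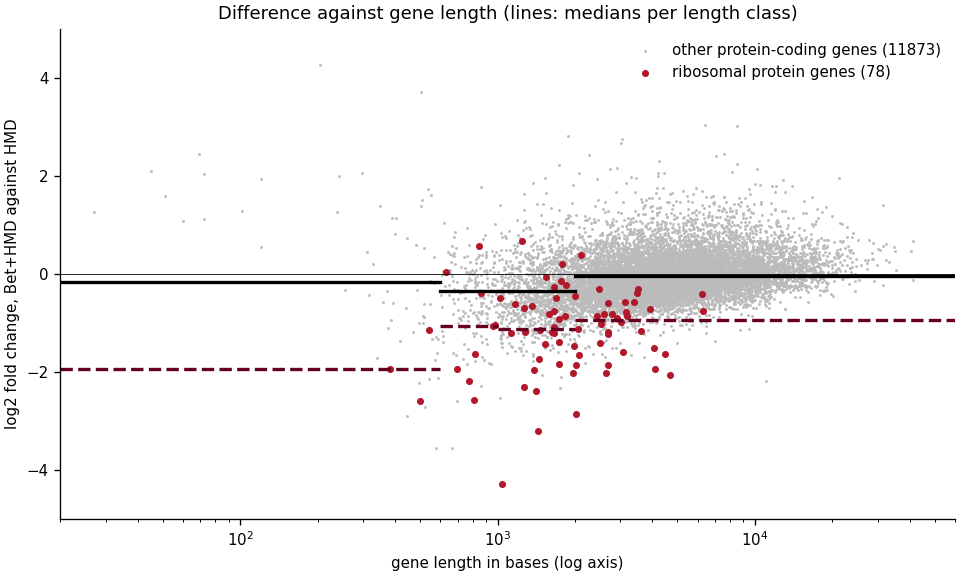
Log2 fold change in Bet+HMD against HMD against gene length in bases (log axis) for 78 ribosomal protein genes (red) and 11873 other protein-coding genes (grey). Lines are the medians of 4 length classes, solid for other genes and dashed for members, and the dashed line lies below the solid one in each class.

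Named pseudogene copies were examined because they can compete with their parents for reads. The table lists 288 pseudogenes named after 59 of the members. Rpl31 has the most, with 24, followed by Rps12 with 23 and Rpl21 with 15. Rpl31, of the large subunit (ENSMUSG00000073702, chromosome 1, 39367842 to 39371911, + strand), had 86.6, 63.2 and 127 FPKM in Con, 74.1, 48.4 and 83.9 in HMD and 41.7, 40.5 and 35.6 in Bet+HMD and a log2 fold change of -0.76 (SE 0.192, limma adjusted p = 0.0151). Its copies held 8.04% of the reads of parent and copies in Con, 6.12% in HMD and 12.6% in Bet+HMD. For Rps12 these shares were 2.73%, 2.67% and 10.3%. The parent of the Rps12 family had 3611 reads over the 3 HMD libraries and 444 in Bet+HMD, and its copies had 99 and 51, fewer in Bet+HMD at both.

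Rpl21, of the large subunit (ENSMUSG00000041453, chromosome 5, 146832890 to 146837032, + strand), had 5.72, 3.47 and 14.5 FPKM in Con, 8.68, 4.11 and 5.92 in HMD and 3.22, 5.09 and 3.11 in Bet+HMD, with overlapping groups and a log2 fold change of -0.57 (SE 0.2499, limma adjusted p = 0.0992). Its copies held 26.97% of the family's reads in HMD and 53.4% in Bet+HMD. In Rpl17 the copies held 48.7% and 61.9%. Rpl17 itself had 136, 197 and 137 FPKM in Con, 172, 203 and 183 in HMD and 29.3, 60.04 and 36.9 in Bet+HMD, and its log2 fold change in Bet+HMD against HMD was -2.18 (SE 0.235, limma adjusted p = 0.000441). For Rps10, which was too low to be tested, the copies held 95.5% in HMD and 92.4% in Bet+HMD. Levels of parents whose copies hold this many reads are uncertain.

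Over all families, reads of the named copies were a small part. They were 3.29% ± 0.127 of the reads of members and named copies in Con, 3.12% ± 0.2199 in HMD and 3.93% ± 0.296 in Bet+HMD (mean ± SD, n = 3). Pseudogenes under other names also share sequence with members, and their reads are not in these shares. Rpl7a, for example, has 12 named copies and shares 100-base stretches with 37 pseudogenes. Of the 41 copies that could be tested in Bet+HMD against HMD, 21 fell and 6 rose, against 25.5% and 22.8% of all genes. With the Bet+HMD libraries averaged to 1 sample 7 fell and 2 rose, against 3.05% and 4.35%. Rps16-ps2 fell by 1.59 on the log2 scale (limma adjusted p = 0.000117), and Rps26-ps1 rose, with a log2 fold change of 2.49 (limma adjusted p = 0.000308). Both were chosen after their values had been seen. When the reads of named copies were added to the parents before the fit, 62 members again fell, and the median log2 fold change was -1.04. That fit tested 13673 genes, against 13672 in the main fit.

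Members were also divided by how much of their sequence is shared. The 6 tested members with no shared 100-base stretch (Rps3, Rps21, Rps27l, Rpl22 and Rpl32 among them) all fell, with a median of -1.64. Of the 39 with up to 50% shared, 30 fell (median -1.03), and of the 33 with more, 26 fell (median -1.12). Rps3, which also takes part in DNA repair, had 43.7, 43.1 and 70.3 FPKM in Con, 47.1, 47.2 and 45.1 in HMD and 14.3, 16.1 and 12.5 in Bet+HMD and a log2 fold change of -1.64 (SE 0.0949, limma adjusted p = 5.07e-05). Of the 20 tested members without a named copy 16 fell (median -1.10). Of the 29 with 1 or 2 named copies 25 fell (median -1.18), and of the 29 with 3 or more 21 fell (median -0.85). A member without a named copy can still share sequence with pseudogenes under other names, as Rpl11 does with 7. Spearman's rho of the log2 fold change with the number of named copies was 0.088, with the shared percentage 0.068, and with the GC content of the transcript 0.0022 (n = 78 members). Of the 42 members whose exons overlap no other gene 34 fell, with a median of -1.19, and of the 9 with more than 20% overlap 5 fell, with a median of -0.71.

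The falls were set beside the spread within Con, which the comparison with HMD does not use. Members that stood high in Con replicate 3 tended to fall least in Bet+HMD against HMD. The difference of Con replicate 3 from the mean of Con replicates 1 and 2 was 2.65 for Rpl7a, 1.40 for Rpl35 and 1.13 for Rpl23a on the log2(FPKM + 1) scale, and -0.45 for Rps27, -0.28 for Rpl39 and 0.019 for Rps12. Over the 78 members Pearson's r of this difference with the log2 fold change was 0.62 and Spearman's rho 0.64. No library is shared between the 2 measures, but both are taken over the same genes, with the same lengths and base composition, and the values carry no p. What sets Con replicate 3 apart was not tested.

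**Figure D5:**
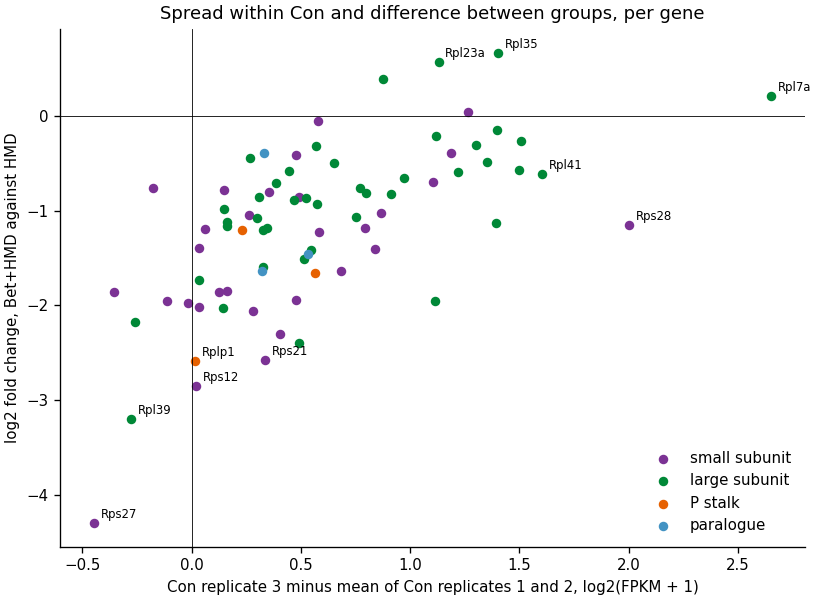
Log2 fold change of each member in Bet+HMD against HMD (vertical) against the difference of Con replicate 3 from the mean of the other 2 Con libraries (horizontal), both on the log2(FPKM + 1) scale. Each point is 1 of 78 genes coloured by role. Genes high in Con replicate 3 lie toward the top, with a Spearman's rho of 0.64.

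Betaine-treated mice were compared with the standard diet to ask how far they lay from untreated mice. The same Bet+HMD libraries enter this comparison and the one above, so the 2 are not independent. Of the 78 members, 63 fell at an adjusted p under 0.05, against 20.4% of 13643 genes, and 0 rose, against 19.4%. By at least 1 on the log2 scale 50 fell, against 2.97%. Groups did not overlap, with Bet+HMD lower, for 68 members, against 29% of all genes. The median log2 fold change was -1.17, beside -0.039 for all genes, and without Con replicate 3 it was -1.05. In the small subunit 27 of 30 fell, in the large subunit 30 of 42, and in the P stalk all 3. With the Bet+HMD libraries averaged to 1 sample, 15 of the 78 fell and 0 rose, against 0.286% of all genes lower and 1.25% higher. Calls over all genes were 2777 lower and 2645 higher on FPKM, 1432 and 3980 after rescaling to TPM, and 2222 and 3289 in voom.

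The 5 largest falls were those of Rps27 at -4.19 (SE 0.336, limma adjusted p = 0.000368), Rpl39 at -3.11 (SE 0.1602, limma adjusted p = 0.000131), Rps12 at -2.80 (SE 0.159, limma adjusted p = 0.000165), Rps21 at -2.67 (SE 0.135, limma adjusted p = 0.000131) and Rplp1 at -2.63 (SE 0.1403, limma adjusted p = 0.000131). The averaged sample kept these 5 calls. Rplp0 had -1.27 (SE 0.104, limma adjusted p = 0.000381) and Rpsa -0.84 (SE 0.103, limma adjusted p = 0.00134), and neither was called with the averaged sample (limma adjusted p = 0.0612 and 0.101). Rps15, Rps26 and Rpl23 had log2 fold changes of -0.44, -0.28 and -0.62, none past the threshold, and their Con libraries spread widely, from 136 to 426 FPKM for Rps15. Only Rpl35 had a mean log2 level above Con, by 0.086. With Rps27rt added, Rps27 had -3.00 (SE 0.104, limma adjusted p = 0.000104).

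The start of the transcript was examined because the members moved together and share the pyrimidine tract as a class. RefSeq start sites on GRCm38.p6 were found for 63 of the 83 members. A window of 30 bases, from 10 before the annotated start to 20 from it on the gene's own strand, was searched for the longest unbroken run of C and T. A run of at least 8 bases was present in 21 of the 63 (33.3%), and in 11.2% of the 27025 genes with such a window. A run of that length that covered the annotated start itself was present in 23.8% of members and 3.81% of all. Windows are printed for 4 members with large falls and for the 3 with the smallest differences, to show whether the tract separates them, with the longest run in capitals.
Rps27, chr3:90213629-90213658, - strand: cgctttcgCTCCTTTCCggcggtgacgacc
Rpl39, chrX:37085203-37085232, - strand: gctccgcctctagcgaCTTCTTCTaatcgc
Rps12, chr10:23787190-23787219, - strand: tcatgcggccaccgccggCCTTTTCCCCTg
Rps21, chr2:180257369-180257398, + strand: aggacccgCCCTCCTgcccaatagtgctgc
Rps15, chr10:80292421-80292450, + strand: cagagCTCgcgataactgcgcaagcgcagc
Rps26, chr10:128626487-128626516, - strand: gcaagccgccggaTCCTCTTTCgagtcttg
Rpl23, chr11:97782420-97782449, - strand: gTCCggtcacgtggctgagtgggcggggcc

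Among these the run of 9 bases in Rps27, whose fall was the largest, equalled in length that of Rps26, whose level differed least but for Rps15. Over the 58 tested members with a window, the median log2 fold change in Bet+HMD against HMD was -0.92 for the 20 with a run of at least 8 bases and -0.97 for the 38 without, and Spearman's rho with the length of the run was 0.078. An annotated start can lie some bases from the true one, so a short run says only that these letters are not in this window. The window of Rps15 ends at 80292450, before the first base of the gene as given above. By these coordinates it holds no base of the transcript, and its short run does not describe the tract of Rps15.

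Other genes of translation were examined as lists. Of the ribosomal genes outside the rule, Fau, which encodes a fusion with a small subunit protein, had 139, 154 and 204 FPKM in Con, 145, 131 and 136 in HMD and 44.0, 42.6 and 32.3 in Bet+HMD, and its log2 fold change in Bet+HMD against HMD was -1.78 (SE 0.122, limma adjusted p = 8.56e-05). Rack1, a scaffold on the small subunit, had 31.9, 31.98 and 30.8 FPKM in Con, 31.1, 29.1 and 32.9 in HMD and 15.1, 15.2 and 13.1 in Bet+HMD and -1.05 (SE 0.0852, limma adjusted p = 0.000152). Rps27a, a member that encodes a fusion with ubiquitin, had 28.4, 32.6 and 31.2 FPKM in Con, 31.5, 32.96 and 27.98 in HMD and 6.42, 7.08 and 7.11 in Bet+HMD and -2.01 (SE 0.0851, limma adjusted p = 1.84e-05).

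Of 20 translation factors, all tested, 13 fell and 2 rose in Bet+HMD against HMD, against 25.5% and 22.8% of all genes, with a median log2 fold change of -0.39. Eef1b2, an exchange factor of elongation, had 44.4, 39.2 and 51.6 FPKM in Con, 41.3, 33.9 and 43.2 in HMD and 17.8, 15.6 and 15.6 in Bet+HMD and -1.22 (SE 0.108, limma adjusted p = 0.000215). Tpt1, whose messenger RNA also carries a pyrimidine tract, had 142, 154 and 161 FPKM in Con, 150.5, 129 and 150.3 in HMD and 82.3, 82.5 and 81.5 in Bet+HMD and -0.79 (SE 0.0793, limma adjusted p = 0.000329). Eef2, which moves the ribosome along, had -0.37 (SE 0.0951, limma adjusted p = 0.0158), and Eif3a rose with 0.45 (SE 0.0804, limma adjusted p = 0.00371). Of 20 genes of ribosome biogenesis, 3 fell and 5 rose, against the same 25.5% and 22.8% of all genes, with a median of 0.14. Nop56, of the small nucleolar complexes, rose with 0.76 (SE 0.0703, limma adjusted p = 0.000242), and its partner Nop58 fell with -0.41 (SE 0.107, limma adjusted p = 0.0169). Of 13 genes of translation control, 12 were tested, 1 fell and 5 rose, against 25.5% and 22.8% of all genes. The largest rise was that of Rps6kb2, an S6 kinase downstream of mTOR, with 3.39, 2.14 and 3.75 FPKM in Con, 2.801, 1.76 and 3.56 in HMD and 14.3, 11.9 and 12.8 in Bet+HMD and 1.95 (SE 0.179, limma adjusted p = 0.000241). Its relative Rps6kb1 rose with 0.33 (SE 0.0892, limma adjusted p = 0.0199), Tsc1 and Tsc2, inhibitors of mTOR, with 0.63 (SE 0.0803, limma adjusted p = 0.000857) and 0.29 (SE 0.0758, limma adjusted p = 0.0169), and Eif2ak4, a kinase of the initiation factor eIF2, with 0.41 (SE 0.09496, limma adjusted p = 0.0104), while Eif4ebp2, a repressor of cap binding, fell with -0.37 (SE 0.0939, limma adjusted p = 0.0151). In HMD against Con 0 genes of these lists passed. With the Bet+HMD libraries averaged to 1 sample, Fau and Rack1 kept their calls, while 1 translation factor (Eef1b2), 2 biogenesis genes (Nop56 and Bms1) and 1 control gene (Rps6kb2) were called, against 3.05% of all genes lower and 4.35% higher. In Bet+HMD against Con the averaged sample gave 0 calls in these lists.

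Markers of cell types moved beside these results. Of 31 markers of hippocampal and neighbouring cell types, 29 were tested in Bet+HMD against HMD, 10 fell and 1 rose, against 25.5% and 22.8% of all genes, with a median log2 fold change of -0.32. With the Bet+HMD libraries averaged to 1 sample 3 fell (Gfap, Mog and Hba-a2) and 0 rose. The summed FPKM of 4 neuron markers was 701 to 827 in Con, 716 to 879 in HMD and 675 to 688 in Bet+HMD. These markers did not move alike in Bet+HMD against HMD. Rbfox3 rose with 0.61 (SE 0.0873, limma adjusted p = 0.00141) and Slc17a7 fell with -0.42 (SE 0.0967, limma adjusted p = 0.0104). Snap25 and Syt1 were not called. The 3 astrocyte markers summed to 112 to 124 in Con, 118 to 129 in HMD and 88.3 in each Bet+HMD library. Among them Gfap fell with -0.65 (SE 0.0625, limma adjusted p = 0.000297), while Aqp4 and Aldh1l1 were not called. The 5 blood markers summed to 99.8 to 148, 149 to 233 and 72.2 to 122, in the same order of groups. The 3 choroid plexus markers summed to 764 to 3174 in Con, 855 to 2545 in HMD and 920.3 to 1192 in Bet+HMD. Prox1 of the dentate gyrus and Wfs1 of CA1, which mark the labelled tissue, summed to 33.4 to 61.02, 49.7 to 66.7 and 52.5 to 53.9. The 3 thalamus markers summed to 4.91 to 6.54, 9.59 to 32.4 and 7.37 to 7.72, with the top of the HMD range in replicate 1. The part of these markers in the fall of the ribosomal protein genes was not tested.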

How the data were processed

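Ribosomal RNA-depleted libraries of 9 hippocampus samples were analysed. The authors deposited FPKM per gene in 2 tables, an earlier one with Con and HMD and a later one with all 3 groups, which was used here. Per the labels, reads were aligned with HISAT2 2.1.0 to mm10 and counted with featureCounts 1.5.0-p3, while the study's methods name later versions. The study's methods name a stranded library kit, and whether the counting used strand is not given in the sources used here. In both tables the Con columns carry another prefix and were matched to Con by exclusion and replicate number. The depth was between 16031464 and 18291952 assigned reads per library, summed from the recovered reads.

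Genes with a mean of at least 1 FPKM over the samples compared were tested with limma 3.58.1 (R 4.3.3) with an intensity trend on log2(FPKM + 1), two-sided, with Benjamini-Hochberg adjustment over all genes tested and a threshold of 0.05. Only the 2 groups compared entered a fit. The pseudocount makes fold changes of low genes smaller than they are. Whole reads were recovered as FPKM times gene length times library size. For 100% of values the result lay within 0.05 of a whole number, plus a small allowance that grew with the read count. The recovered reads were used for voom, for shares of reads and for sums over gene copies. The limma fit was tested on simulated data. Shared sequence was counted as 100-base stretches in the transcripts of GENCODE M21 (GRCm38), which held 54409 of the 54532 gene IDs and all 83 members, 80 of them at the same length. Start windows came from RefSeq. Sequences are reference sequences, not reads.

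The members and lists were chosen with earlier results of these data known. Named were, per comparison, the 5 largest falls and rises past the threshold (or the 3 smallest p in each direction), the 3 smallest differences, the 3 highest levels, the P stalk genes and Rpsa, the paralogues and the 3 members with the most named pseudogenes. Others were picked for a point of sequence or annotation after their values were seen. Alternatives changed the pseudocount, the filter, the scaling, the trend, the samples in the fit, the genes tested, the length and pseudogene handling, the replicate block and the table, and left out each library in turn. Some genes are not reported here.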

Additional observations from a re-analysis of the deposited data

How the results depend on the processing

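Values are log2 fold changes unless said. With the 3 Bet+HMD libraries averaged to 1 sample, an alternative added after seeing the data, the members called went from 62 to 40 in Bet+HMD against HMD and from 63 to 15 in Bet+HMD against Con, where the fit rests on fewer samples. The other alternatives and the fits without 1 library called 56 to 71 and 52 to 69 members in these comparisons, and 0 in HMD against Con throughout. The median of the members in Bet+HMD against HMD was -1.07, and -0.89 after rescaling to TPM, -0.78 after quantile normalization and -0.92 with a length correction, with or without the replicate block. Leaving out 1 library gave -1.12 to -0.92, the latter without HMD replicate 3. In Bet+HMD against Con it was -1.17, and -0.86 after quantile normalization. In HMD against Con, leaving out 1 library gave -0.24 to -0.0053, the latter without Con replicate 3. Without members that have a named pseudogene copy the share of reads was 0.313% in Con, 0.271% in HMD and 0.134% in Bet+HMD. The cause of these shifts was not tested. No member was called in a fit in which it changed sign. In Bet+HMD against HMD, Rps26 was 0.14 after rescaling to TPM, 0.27 after quantile normalization, 0.033 in voom, 0.17 with the length correction, with or without the block, and 0.0015 with pseudogene reads added. Rpl23 was 0.052 in TPM, 0.080 after quantile normalization and 0.078 with the length correction, with or without the block, and Rps15 -0.062 with that correction, with or without the block. Without 1 library Rps26 ran from -0.20 to 0.080, Rpl23 from -0.32 to 0.015 and Rps15 from -0.27 to 0.36. In HMD against Con, Rps27 ran from -0.044 to 0.30 without 1 library and was -0.056 with Rps27rt added. Calls of a higher level came in 2 fits, for Rpl35 without HMD replicate 3 and for Rpl13a (0.58) with the replicate block and the length correction together.

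Same-numbered samples did not deviate together in every pair. Their deviations from the group means correlated across genes at -0.058, 0.34 and 0.32 between HMD and Con, for replicates 1, 2 and 3. The values were 0.017, -0.10 and -0.15 between Bet+HMD and HMD, and -0.049, -0.090 and -0.18 between Bet+HMD and Con. Replicates 2 and 3 of Con and HMD thus deviated partly together. What same-numbered samples share beyond the number was not tested. A sample correlated best with its own number in 4 of 6, 1 of 6 and 0 of 6 cases. With the replicate number as a block 62 members were called in Bet+HMD against HMD, 61 in Bet+HMD against Con and 0 in HMD against Con, and 59, 60 and 0 with the block and the length correction together.

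All samples are single libraries with 16031464 to 18291952 assigned reads, and betaine, age and the later addition enter every comparison with Bet+HMD together. Rpl3l, Rpl10l, Rpl24, Rpl39l and Rps10 were too low to be tested at the 1 FPKM minimum.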

Other observations

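The proteins of the mitochondrial ribosome are encoded in the nucleus by a separate set of genes, and this list was chosen after results had been seen. Of the 78 genes whose symbols begin with Mrps or Mrpl and a number, 77 were tested. In Bet+HMD against HMD 32 fell and 5 rose at an adjusted p under 0.05 (limma), against 25.5% and 22.8% of all genes, and the median log2 fold change was -0.27, with a range from -1.69 to 0.78. In Bet+HMD against Con 29 fell and 1 rose, against 20.4% and 19.4%, with a median of -0.42. With the Bet+HMD libraries averaged to 1 sample, 8 fell and 0 rose in Bet+HMD against HMD, against 3.05% of all genes lower, and 1 fell and 0 rose in Bet+HMD against Con, against 0.286%. In HMD against Con 0 passed in limma, and the median was -0.13. Whether the mitochondrial and the cytosolic set differ was not tested.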
